A study of Mus musculus with 12 samples.

Results

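The 33 genes described here mark the oligodendrocyte lineage of the mouse medial prefrontal cortex (mPFC), from precursor cells to myelin. They were listed by name and stage, by a rule that uses no measured value. Earlier results of these data were known when they were chosen. All 33 were found among the 17283 genes of the deposited table, and all 33 were among the 13586 genes tested. The list holds 4 precursor genes, 2 genes of newly committed cells, 5 transcription regulators, 11 genes of myelin proteins, 4 genes of myelin lipid metabolism and 7 genes that mature oligodendrocytes use for other tasks.

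RNA from the mPFC was sequenced in 12 libraries, which form 4 groups of 3. C57 mice, which the labels call wild type, received DMSO (C57 vehicle) or astragaloside IV (C57 ASIV), a saponin of Astragalus root. BTBR mice, an inbred line studied as an autism model, received the same 2 treatments (BTBR vehicle and BTBR ASIV). Injections were intraperitoneal and were given for 7 days to every group, and the design text asks about an effect of ASIV on neurotransmission in the BTBR strain. The dose and the age and sex of the mice are not stated in the labels used here. The labels call the 3 libraries of a group parallel samples and do not say that they came from separate animals. The p-values therefore measure the spread between these libraries, which may be technical.

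Levels are FPKM, the fragments of a gene scaled to the length of its exons and to the depth of the library, and ± marks the standard deviation over 3 libraries. Each library held 16166335 to 18660021 fragments, so 1 fragment on a gene of 1 kb was worth 0.0536 to 0.0619 FPKM. Differences are in log2(FPKM + 1) with the standard error (SE) of a limma model of all 12 libraries. A gene was called at a Benjamini-Hochberg adjusted p under 0.05 over all genes tested. Positions of genes are those of GENCODE M21 on the mm10 genome. RNAs of the mitochondrial genome made up 4.91 to 5.24% of the fragments in C57 vehicle, 3.57 to 5.18% in C57 ASIV, 0.589 to 1.16% for BTBR vehicle and 3.80 to 4.13% for BTBR ASIV. In bulk tissue, fewer cells of a type and less RNA per cell cannot be told apart.

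Oligodendrocyte precursor cells persist in the adult cortex, where they divide and give rise to oligodendrocytes. The transcription factors of the Olig and Sox families hold the lineage identity, and Myrf switches on the genes of myelin. Mature oligodendrocytes wrap axons in compact myelin, a membrane rich in galactolipids and held together by a small set of abundant proteins.

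The myelin genes were abundant in every group. Mbp, which encodes myelin basic protein and holds the cytoplasmic faces of compact myelin together, stood at 259, 257 and 296 FPKM in C57 vehicle, 205, 216 and 353 in C57 ASIV, 405, 132 and 333 for BTBR vehicle and 354, 176 and 343 for BTBR ASIV. All 4 groups overlapped, and the highest and the lowest of the 12 values both fell in BTBR vehicle. In C57 vehicle the next highest means among the members were those of Olig1 (90.4 FPKM), Cnp (79.3), Car2 (74.3), Mobp (72.1) and Qdpr (70.9), and no neighbours in this order differed by more than the sum of their SDs. The lowest were those of Cspg4 (2.84), Aspa (1.85) and Trf (1.68). The level of Trf goes with an exon overlap: 63.5% of its exon bases also belong to the transcript Gm20425 on the same strand, and the part of this overlap in its level was not tested.

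The 15 genes of myelin proteins and myelin lipids varied together from library to library within a group. Their summed level was 655.3, 625.7 and 739.2 FPKM in C57 vehicle, 555.2, 563.5 and 936.8 in C57 ASIV, 1248, 515.8 and 994 for BTBR vehicle and 898.1, 458.4 and 906.1 for BTBR ASIV. The ratio of the highest to the lowest library was thus 1.18, 1.69, 2.42 and 1.98 in these groups. BTBR vehicle 1 was the highest library of its group for 15 of the 15 genes and BTBR vehicle 2 the lowest for 13, the exceptions being Opalin and Pllp. BTBR ASIV 2 was the lowest of its group for 15 of 15. C57 ASIV 3 and C57 vehicle 3 were each the highest of their group for 14 of 15. Over all genes tested, a given library was the highest of its group for 24.6 to 44.3% of genes and the lowest for 29.5 to 37.6%.

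**Figure D1:**
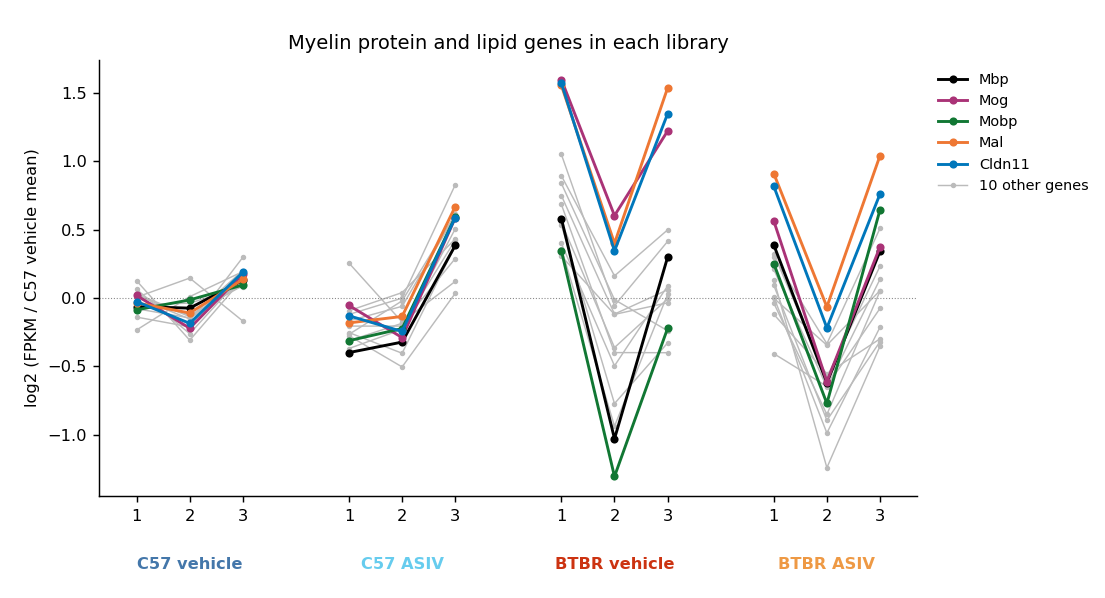
The 11 myelin protein and 4 myelin lipid genes in each of the 12 libraries, as log2 of FPKM over the C57 vehicle mean of the same gene. Lines join the values of 1 gene within a group and imply no order of the libraries. BTBR vehicle 2 and BTBR ASIV 2 are low for nearly all 15 genes, and Mal, Cldn11 and Mog lie above the rest in BTBR vehicle.

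The same libraries stood out in mature oligodendrocyte genes that are not members. Of 37 such genes, BTBR vehicle 2 was the lowest of its group for 33 and BTBR ASIV 2 for 34, while C57 ASIV 3 was the highest for 35. The pattern was weaker for BTBR vehicle 1, the highest for 27, and for C57 vehicle 3, the highest for 21. For a single gene of the 15, the median ratio of highest to lowest library was 1.24 in C57 vehicle, 1.72 in C57 ASIV, 2.12 for BTBR vehicle and 1.98 for BTBR ASIV. Over all genes it was 1.16, 1.22, 1.34 and 1.24. The 6 precursor and committed genes lay between, at 1.22, 1.27, 1.7 and 1.37. The labels name no dissection, cage or preparation batch for these libraries.

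The summed level of 9 striatal markers in the table, among them Drd1, Drd2 and Ppp1r1b of striatal projection neurons, also differed between libraries of a group. It was 87.56, 111.8 and 239.2 FPKM in C57 vehicle, 79.8, 78.72 and 286.8 in C57 ASIV, 198.1, 271.8 and 89.17 for BTBR vehicle and 257.8, 68.53 and 471.6 for BTBR ASIV. In 3 of the 4 groups the library with the highest striatal sum also had the highest myelin sum. In BTBR vehicle the library with the highest striatal sum, BTBR vehicle 2, had the lowest myelin sum. None of the 9 genes was called in any of the 5 comparisons. Between the strains under vehicle 8 were higher in BTBR and 1 lower (median difference 0.26), and under ASIV all 9 were higher (0.77). After ASIV in BTBR mice all 9 were higher (0.32), and after ASIV in C57 mice 2 were higher and 7 lower (-0.07). The part of tissue composition in the values of the members was not tested.

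**Figure D2:**
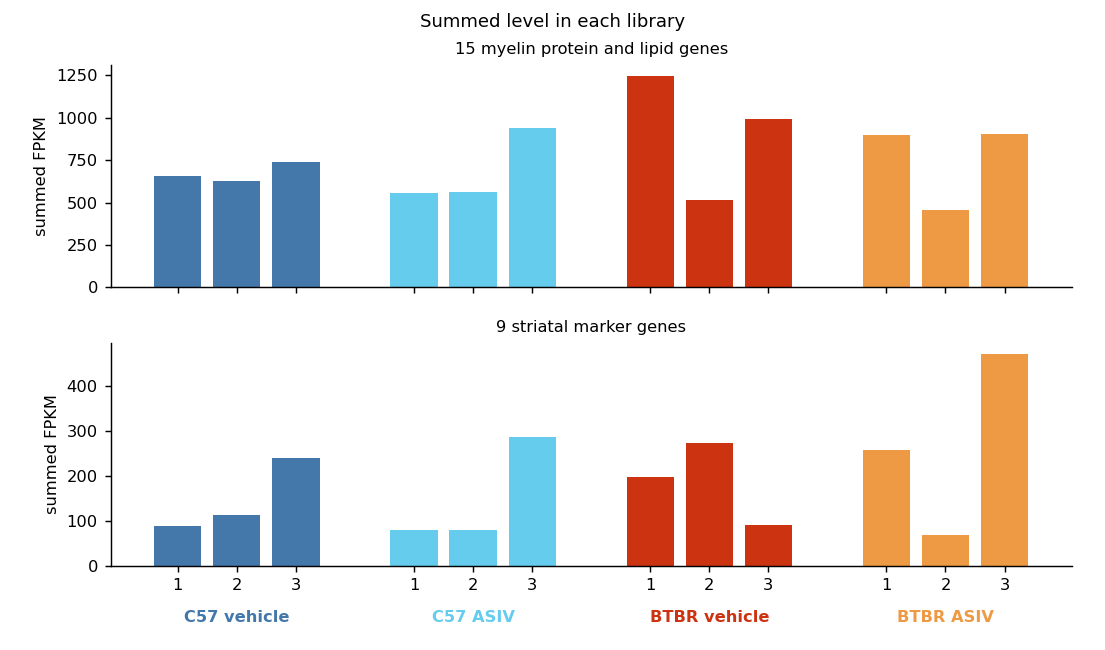
Summed FPKM of the 15 myelin protein and lipid genes (upper bars) and of 9 striatal marker genes (lower bars) in each library, with axes starting at 0. The myelin sum runs from 458.4 in BTBR ASIV 2 to 1248 in BTBR vehicle 1, and the striatal sum from 68.53 in BTBR ASIV 2 to 471.6 in BTBR ASIV 3.

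Between BTBR and C57 under vehicle, 12 of the 33 members were called, 7 higher and 5 lower in BTBR. The higher ones were the myelin protein genes Mal, Mog and Cldn11, the regulator Olig1, the precursor gene C1ql1, the committed-stage gene Gpr17 and Qdpr. The lower ones were the precursor gene Lhfpl3, the regulator Sox10, and Trf, Cryab and Car2. Trf entered the test through C57 libraries alone, so its place in this count is a description. Read against the background, this count is not a result about the members: 43.1% of all genes tested were called in this comparison, 22.3% higher and 20.8% lower. The median difference of the members was 0.05, against 0.01 over all genes tested. The FPKM of the groups did not overlap for 10 members, against 53.3% of all genes tested.

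**Figure D3:**
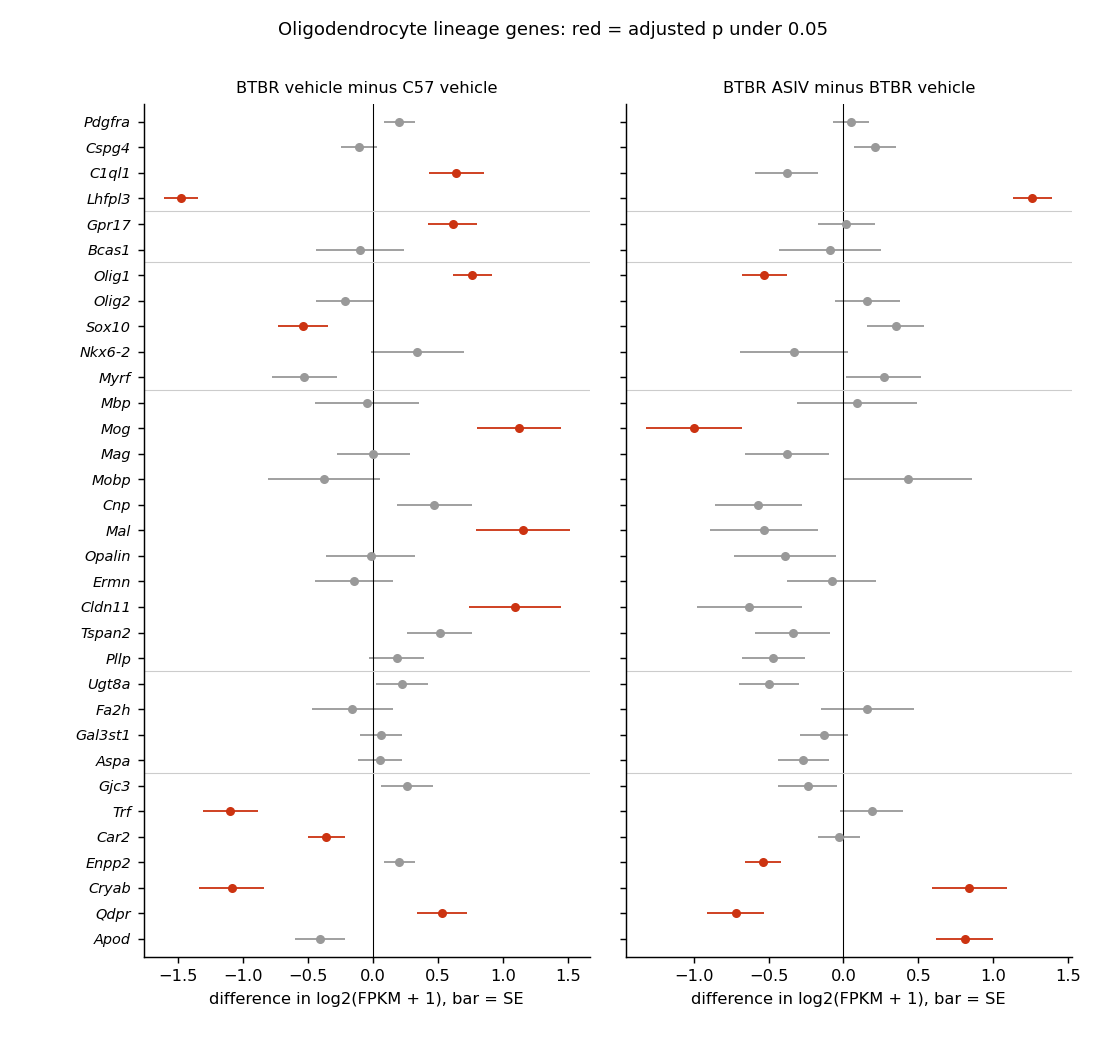
Difference in log2(FPKM + 1) of each of the 33 genes between BTBR vehicle and C57 vehicle (left) and between BTBR ASIV and BTBR vehicle (right), with bars of 1 SE and red for an adjusted p under 0.05. Genes are ordered by stage from precursor (top) to other oligodendrocyte functions (bottom). Both panels use the same BTBR vehicle libraries, so a high or low value in those libraries enters both with opposite sign.

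Precursor genes differed in direction between members. Lhfpl3 (ENSMUSG00000106379, chr5:22746059-23275597, plus strand), which encodes a tetraspan membrane protein and is enriched in precursor cells, stood at 5.84, 7.31 and 6.36 FPKM in C57 vehicle, 7.05, 6.88 and 7.66 in C57 ASIV, 1.43, 1.39 and 2.31 for BTBR vehicle and 4.78, 5.54 and 6.02 for BTBR ASIV. Every BTBR vehicle library lay below every other library, and the difference between the strains under vehicle was -1.48 (SE 0.13, adjusted p = 8.34e-06), a fold of 0.358. This call held under all 25 alternatives, with differences of -1.64 to -1.40 when single libraries were left out. C1ql1 (ENSMUSG00000045532, chr11:102939264-102946688, minus strand), a secreted protein of precursor cells related to complement, stood at 12.8, 13.4 and 12.7 FPKM in C57 vehicle, 14.5, 12.5 and 9.42 in C57 ASIV, 15.1, 20.8 and 28.4 for BTBR vehicle and 12.6, 16.8 and 18.4 for BTBR ASIV. It was higher in BTBR vehicle by 0.64 (SE 0.21, adjusted p = 0.0245), and the BTBR vehicle libraries did not overlap those of C57 vehicle. That call ended without any of C57 vehicle 1, C57 vehicle 2, C57 vehicle 3, BTBR vehicle 2 and BTBR vehicle 3 (differences of 0.42 to 0.67, adjusted p 0.0524 to 0.0993).

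The receptor and the proteoglycan that define precursor cells were not called. Pdgfra (ENSMUSG00000029231, chr5:75152292-75198215, plus strand), the growth factor receptor that drives precursor division, stood at 7.28, 7.60 and 9.18 FPKM in C57 vehicle, 8.12, 7.72 and 6.30 in C57 ASIV, 9.52, 8.05 and 10.5 for BTBR vehicle and 9.12, 9.77 and 10.1 for BTBR ASIV. The groups under vehicle overlapped, with a difference of 0.20 (SE 0.12, adjusted p = 0.193). Cspg4, the NG2 proteoglycan, averaged 2.84 ± 0.234 FPKM in C57 vehicle, 2.37 ± 0.295 in C57 ASIV, 2.61 ± 0.694 for BTBR vehicle and 3.13 ± 0.399 for BTBR ASIV, with a difference of -0.11 (SE 0.14, adjusted p = 0.566) under vehicle.

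Of the 2 committed-stage genes, Gpr17 was called. Gpr17, a receptor present for a short time as precursors differentiate, stood at 11.0, 7.52 and 11.4 FPKM in C57 vehicle, 10.2, 10.1 and 9.46 in C57 ASIV, 18.7, 13.1 and 15.1 for BTBR vehicle and 13.3, 13.4 and 21.7 for BTBR ASIV. BTBR vehicle was above C57 vehicle in all 3 libraries, by 0.61 (SE 0.19, adjusted p = 0.0223). The call ended without C57 vehicle 2 (0.44, adjusted p = 0.101) and without BTBR vehicle 1 (0.48, adjusted p = 0.0839). Bcas1, a marker of oligodendrocytes that begin to myelinate, averaged 25.4 ± 2.38 FPKM in C57 vehicle, 25.6 ± 8.22 in C57 ASIV, 25.4 ± 12.9 for BTBR vehicle and 22.9 ± 7.78 for BTBR ASIV, and the vehicle groups overlapped.

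**Figure D4:**
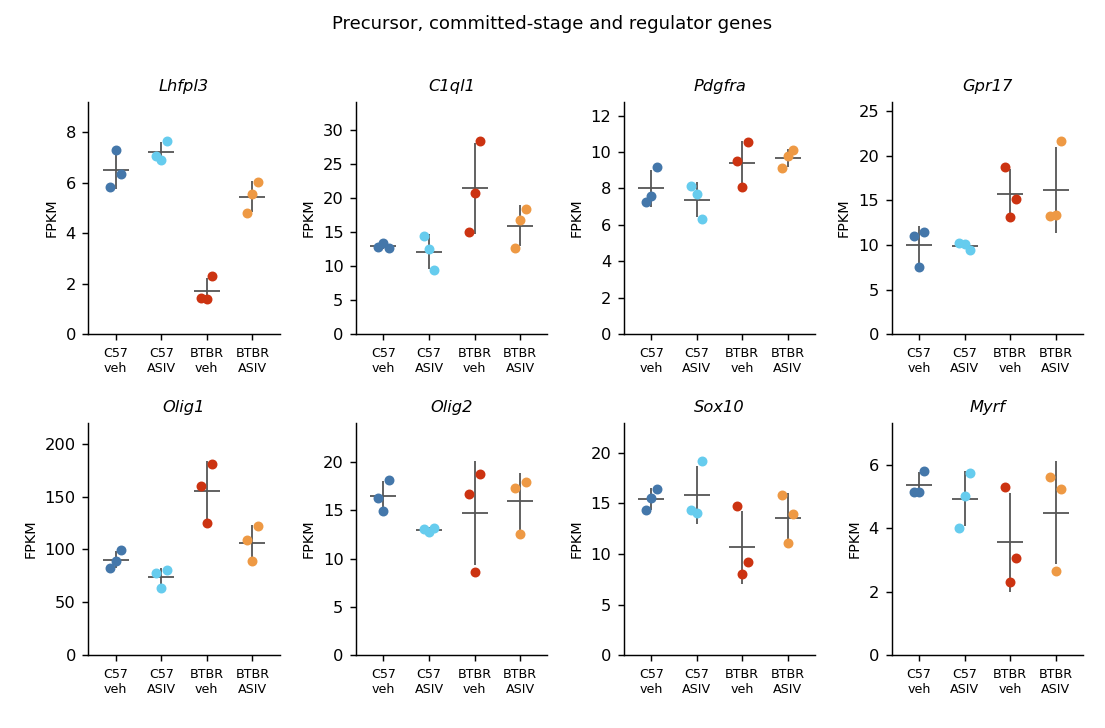
FPKM of 8 precursor, committed-stage and regulator genes in each library (points), with the mean (line) and the standard deviation (bar) of each group of 3. Lhfpl3 is low in the 3 BTBR vehicle libraries (1.39 to 2.31 FPKM), Olig1 is high in them (125.3 to 180.6 FPKM), and the vehicle groups overlap for Olig2.

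Among the regulators, Olig1 and Sox10 were called in opposite directions under vehicle. Olig1 (ENSMUSG00000046160, chr16:91269772-91271933, plus strand), a helix-loop-helix factor of the whole lineage, stood at 82.8, 89.0 and 99.3 FPKM in C57 vehicle, 77.4, 63.4 and 80.2 in C57 ASIV, 159.9, 125 and 181 for BTBR vehicle and 108, 88.8 and 122 for BTBR ASIV. The 3 BTBR vehicle libraries were above all others, and the difference from C57 vehicle was 0.76 (SE 0.15, adjusted p = 0.00185), which held under all 25 alternatives. Its neighbour Olig2 (ENSMUSG00000039830, chr16:91225457-91228677, plus strand), which specifies the lineage, stood at 16.2, 14.9 and 18.2 FPKM in C57 vehicle, 13.1, 12.7 and 13.2 in C57 ASIV, 16.8, 8.59 and 18.8 for BTBR vehicle and 17.3, 12.5 and 17.9 for BTBR ASIV. The vehicle groups overlapped, with a difference of -0.22 (SE 0.22, adjusted p = 0.458). Sox10 (ENSMUSG00000033006, chr15:79154908-79165240, minus strand), the factor that keeps the lineage identity and acts with Myrf, stood at 14.3, 15.5 and 16.4 FPKM in C57 vehicle, 14.3, 14.01 and 19.1 in C57 ASIV, 14.8, 8.002 and 9.16 for BTBR vehicle and 15.8, 11.0 and 13.9 for BTBR ASIV. It was lower in BTBR vehicle, with a difference of -0.54 (SE 0.19, adjusted p = 0.0407), although BTBR vehicle 1 overlapped C57 vehicle. The Sox10 call ended without C57 vehicle 1, C57 vehicle 2, C57 vehicle 3, BTBR vehicle 2, BTBR vehicle 3 or BTBR ASIV 3 (differences of -0.59 to -0.37, adjusted p 0.0502 to 0.141), after rescaling to TPM and in a fit of the compared groups alone.

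Myrf (ENSMUSG00000036098, chr19:10208272-10240748, minus strand), the membrane-bound factor that activates myelin genes, stood at 5.14, 5.15 and 5.81 FPKM in C57 vehicle, 4.02, 5.01 and 5.74 in C57 ASIV, 5.31, 2.31 and 3.06 for BTBR vehicle and 5.60, 2.64 and 5.23 for BTBR ASIV. The vehicle groups overlapped and the difference was -0.53 (SE 0.25, adjusted p = 0.1). Nkx6-2, a homeodomain factor of mature oligodendrocytes, averaged 7.38 ± 0.551 FPKM in C57 vehicle, 6.33 ± 1.86 in C57 ASIV, 10.5 ± 5.04 for BTBR vehicle and 7.79 ± 2.94 for BTBR ASIV, with a difference of 0.34 (SE 0.36, adjusted p = 0.479) under vehicle.

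Of the 11 myelin protein genes, 3 were called and all 3 were higher in BTBR vehicle, against 43.1% of all genes called and 22.3% called higher. Mal (ENSMUSG00000027375, chr2:127633226-127656695, minus strand), a proteolipid of myelin rafts, stood at 54.7, 52.0 and 61.6 FPKM in C57 vehicle, 49.4, 51.0 and 89.1 in C57 ASIV, 165, 74.0 and 163 for BTBR vehicle and 105, 53.6 and 115 for BTBR ASIV. All 3 BTBR vehicle libraries exceeded all 3 of C57 vehicle, by 1.15 (SE 0.36, adjusted p = 0.0246). Cldn11 (ENSMUSG00000037625, chr3:31149920-31164324, plus strand), the claudin of the tight junctions between myelin layers, stood at 61.5, 55.1 and 71.4 FPKM in C57 vehicle, 57.2, 52.9 and 94.2 in C57 ASIV, 186, 79.6 and 159.5 for BTBR vehicle and 110.5, 53.9 and 106 for BTBR ASIV. It too was higher in each BTBR vehicle library, by 1.09 (SE 0.35, adjusted p = 0.0295). Mog (ENSMUSG00000076439, chr17:37010743-37023398, minus strand), a glycoprotein on the outer face of myelin, stood at 25.2, 21.4 and 28.2 FPKM in C57 vehicle, 24.0, 20.4 and 37.4 in C57 ASIV, 75.5, 37.9 and 58.1 for BTBR vehicle and 36.9, 16.3 and 32.3 for BTBR ASIV. Its BTBR vehicle libraries also lay above those of C57 vehicle, by 1.12 (SE 0.32, adjusted p = 0.017). Mal and Cldn11 were no longer called without C57 vehicle 1, C57 vehicle 2, BTBR vehicle 1 or BTBR vehicle 3 (differences of 0.96 to 1.14 for Mal, adjusted p 0.0636 to 0.0927, and of 0.84 to 1.08 for Cldn11, adjusted p 0.0708 to 0.0997). Mog was no longer called without C57 vehicle 2, BTBR vehicle 1 or BTBR vehicle 3 (0.90 to 1.08, adjusted p 0.0548 to 0.0619).

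The other 8 myelin protein genes were not called under vehicle. Cnp (ENSMUSG00000006782, chr11:100574904-100591729, plus strand), the cyclic nucleotide phosphodiesterase of non-compact myelin, stood at 79.5, 71.2 and 87.2 FPKM in C57 vehicle, 68.7, 68.7 and 106 in C57 ASIV, 164, 76.2 and 106 for BTBR vehicle and 91.6, 50.4 and 87.2 for BTBR ASIV. The vehicle groups overlapped through BTBR vehicle 2, and the difference was 0.47 (SE 0.29, adjusted p = 0.211). The Mbp difference was -0.05 (SE 0.40, adjusted p = 0.934), an SE that leaves room for changes in either direction. Mag, an adhesion protein at the contact of myelin with the axon, averaged 35.8 ± 2.74 FPKM in C57 vehicle, 34.5 ± 10.6 in C57 ASIV, 36.8 ± 11.0 for BTBR vehicle and 28.3 ± 9.22 for BTBR ASIV. Mobp, a basic protein of compact myelin, averaged 72.1 ± 4.603 FPKM in C57 vehicle, 76.2 ± 28.3 in C57 ASIV, 60.9 ± 31.2 for BTBR vehicle and 80.3 ± 35.6 for BTBR ASIV. Tspan2, a tetraspanin of the oligodendrocyte membrane, averaged 19.1 ± 2.83 FPKM in C57 vehicle, 21.4 ± 6.58 in C57 ASIV, 27.9 ± 7.10 for BTBR vehicle and 21.9 ± 6.16 for BTBR ASIV. Opalin, a transmembrane protein of the paranodal loops, averaged 8.53 ± 1.12 FPKM in C57 vehicle, 10.5 ± 4.03 in C57 ASIV, 8.88 ± 4.18 for BTBR vehicle and 6.55 ± 2.88 for BTBR ASIV. Ermn, a cytoskeletal protein of late differentiation, averaged 8.81 ± 1.29 FPKM in C57 vehicle, 9.83 ± 3.23 in C57 ASIV, 8.31 ± 3.96 for BTBR vehicle and 7.53 ± 2.31 for BTBR ASIV. Pllp, the myelin proteolipid plasmolipin, averaged 4.73 ± 0.944 FPKM in C57 vehicle, 4.996 ± 0.742 in C57 ASIV, 5.72 ± 2.40 for BTBR vehicle and 3.69 ± 0.742 for BTBR ASIV, and 54.2% of its exon bases also lie in Gm45767 on the opposite strand. Whether the authors counted by strand is not given in the sources used here.

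None of the 4 genes of myelin lipid metabolism was called in any of the 5 comparisons. Ugt8a, which makes galactosylceramide, averaged 9.56 ± 0.804 FPKM in C57 vehicle, 9.26 ± 2.12 in C57 ASIV, 11.6 ± 3.90 for BTBR vehicle and 7.70 ± 1.15 for BTBR ASIV. Fa2h, which hydroxylates the fatty acids of galactolipids, averaged 11.2 ± 0.583 FPKM in C57 vehicle, 11.4 ± 3.96 in C57 ASIV, 10.6 ± 4.35 for BTBR vehicle and 11.6 ± 3.55 for BTBR ASIV. Gal3st1, which turns galactosylceramide into sulfatide, averaged 8.01 ± 1.34 FPKM in C57 vehicle, 6.82 ± 1.29 in C57 ASIV, 8.37 ± 1.35 for BTBR vehicle and 7.54 ± 1.08 for BTBR ASIV. Aspa, which cleaves N-acetylaspartate and so supplies acetate, averaged 1.85 ± 0.200 FPKM in C57 vehicle, 2.04 ± 0.400 in C57 ASIV, 2.00 ± 0.651 for BTBR vehicle and 1.48 ± 0.488 for BTBR ASIV. Their differences between the strains under vehicle ran from -0.16 to 0.22.

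Promoters are shown for the 3 myelin genes that were higher together in BTBR vehicle (Mal, Cldn11, Mog), for Mobp as a myelin gene whose share of Mbp was lower there, and for Lhfpl3, which was lowest there. Each is the 250 bases before the start of transcription from RefSeq (GRCm38.p6), written 5′ to 3′ on the strand of the gene. Capitals mark matches to 3 motifs searched on both strands: SOX (ACAAAG or ACAATG), MYRF (CTGGCAC or CTGGTAC) and E-box (CAGCTG or CATCTG, the kind that Olig factors bind). The stretches lie at chr2:127656696-127656945 for Mal (minus strand), chr3:31149670-31149919 for Cldn11 (plus strand), chr17:37023399-37023648 for Mog (minus strand), chr9:120149492-120149741 for Mobp (plus strand) and chr5:22745804-22746053 for Lhfpl3 (plus strand).
Mal: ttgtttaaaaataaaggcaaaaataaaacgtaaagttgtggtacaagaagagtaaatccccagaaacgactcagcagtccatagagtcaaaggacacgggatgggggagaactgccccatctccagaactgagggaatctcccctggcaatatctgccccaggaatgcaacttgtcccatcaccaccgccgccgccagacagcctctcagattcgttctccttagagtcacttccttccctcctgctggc
Cldn11: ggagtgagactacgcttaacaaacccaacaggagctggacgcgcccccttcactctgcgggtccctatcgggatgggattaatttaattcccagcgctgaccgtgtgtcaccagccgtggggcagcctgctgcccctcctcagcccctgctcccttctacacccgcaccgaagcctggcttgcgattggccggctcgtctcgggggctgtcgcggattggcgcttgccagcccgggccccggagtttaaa
Mog: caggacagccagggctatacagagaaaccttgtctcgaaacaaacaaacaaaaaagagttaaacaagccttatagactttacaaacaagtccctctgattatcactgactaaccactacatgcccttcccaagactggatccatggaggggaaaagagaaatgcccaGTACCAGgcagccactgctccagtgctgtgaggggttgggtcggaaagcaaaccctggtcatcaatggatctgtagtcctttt
Mobp: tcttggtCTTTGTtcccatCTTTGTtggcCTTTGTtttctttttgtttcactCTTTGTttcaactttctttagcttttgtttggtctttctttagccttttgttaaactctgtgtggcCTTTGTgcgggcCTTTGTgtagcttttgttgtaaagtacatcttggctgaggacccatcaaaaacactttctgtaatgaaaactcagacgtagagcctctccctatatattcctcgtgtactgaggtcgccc
Lhfpl3: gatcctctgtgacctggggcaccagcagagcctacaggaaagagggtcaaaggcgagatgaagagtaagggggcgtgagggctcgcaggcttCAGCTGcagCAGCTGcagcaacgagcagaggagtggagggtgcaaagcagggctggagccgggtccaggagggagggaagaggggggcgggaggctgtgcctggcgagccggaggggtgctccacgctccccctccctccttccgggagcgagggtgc
The Mal and Cldn11 stretches hold no match to the 3 motifs. The Mog stretch holds 1 MYRF match, on the reverse strand, and the Mobp stretch 6 SOX matches, all on the reverse strand. The Lhfpl3 stretch holds 2 E-boxes. Promoters were matched for 21 of the 33 members, 26 promoters in all. A SOX match was found in 11 of the 26, against 25.2% of 32851 mouse promoters of the same length. A MYRF match was found in 4 of the 26, in Cnp, Mag and Mog, against 5.93%, and an E-box in 8 of the 26, against 25.5%. Promoters of a gene can overlap, as those of Mag and Gal3st1 do, so a site can be counted more than once. By gene, 9 of the 21 members held a SOX match, 3 a MYRF match and 8 an E-box. No motif was shared by the 3 genes that were higher together, and a match is a description of letters, not a binding site.

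Of the 7 genes with other functions in oligodendrocytes, 1 was called higher and 3 lower under vehicle, against 22.3% and 20.8% of all genes. Cryab (ENSMUSG00000032060, chr9:50751325-50756636, plus strand), a small heat shock protein, stood at 38.2, 45.7 and 44.8 FPKM in C57 vehicle, 29.5, 34.3 and 55.6 in C57 ASIV, 28.1, 13.2 and 19.8 for BTBR vehicle and 40.1, 32.4 and 34.7 for BTBR ASIV. Every BTBR vehicle library lay below every C57 vehicle library, with a difference of -1.09 (SE 0.25, adjusted p = 0.00461), and the call held under all 25 alternatives. Hspb2 on the opposite strand shares 17% of the exon bases of Cryab. Trf (ENSMUSG00000032554, chr9:103204001-103230444, minus strand), the iron carrier transferrin, stood at 1.44, 1.59 and 2.02 FPKM in C57 vehicle, 0.686, 1.45 and 2.12 in C57 ASIV, 0.466, 0.159 and 0.149 for BTBR vehicle and 0.686, 0.216 and 0.423 for BTBR ASIV, which is 8 to 118 fragments a library. It entered the test through C57 libraries alone, so its difference of -1.10 (SE 0.21, adjusted p = 0.00118) is given as a description. Qdpr, which recycles the cofactor tetrahydrobiopterin, averaged 70.9 ± 3.92 FPKM in C57 vehicle, 72.4 ± 17.3 in C57 ASIV, 105 ± 27.2 for BTBR vehicle and 62.5 ± 10.4 for BTBR ASIV. It was higher in BTBR vehicle by 0.53 (SE 0.19, adjusted p = 0.042), without overlap. Car2, a carbonic anhydrase, averaged 74.3 ± 5.71 FPKM in C57 vehicle, 68.7 ± 7.12 in C57 ASIV, 58.4 ± 13.04 for BTBR vehicle and 56.2 ± 2.37 for BTBR ASIV and was lower in BTBR vehicle, with overlap and a difference of -0.36 (SE 0.14, adjusted p = 0.0473). The Qdpr call ended without C57 vehicle 1, C57 vehicle 2, C57 vehicle 3, BTBR vehicle 1, BTBR vehicle 3 or BTBR ASIV 3 (0.33 to 0.59, adjusted p 0.0504 to 0.169), after quantile normalization and after rescaling without the mitochondrial genome. The Car2 call ended in 14 of 25 alternatives (-0.42 to -0.27 where 1 of 10 libraries was left out, adjusted p 0.0561 to 0.163). Those 10 are all libraries but C57 ASIV 3 and BTBR vehicle 1.

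The 3 remaining genes of this kind were not called under vehicle. Gjc3, a connexin of myelinating glia, averaged 10.4 ± 0.844 FPKM in C57 vehicle, 10.3 ± 1.78 in C57 ASIV, 13.2 ± 4.70 for BTBR vehicle and 10.7 ± 1.46 for BTBR ASIV. Enpp2, the enzyme autotaxin, averaged 33.3 ± 1.26 FPKM in C57 vehicle, 31.3 ± 0.316 in C57 ASIV, 38.7 ± 7.15 for BTBR vehicle and 26.0 ± 0.933 for BTBR ASIV. Apod (ENSMUSG00000022548, chr16:31296192-31314808, minus strand), a lipid carrier, stood at 29.0, 37.0 and 36.5 FPKM in C57 vehicle, 39.0, 38.5 and 35.8 in C57 ASIV, 32.2, 17.8 and 28.5 for BTBR vehicle and 38.7, 43.5 and 55.4 for BTBR ASIV. Their differences under vehicle were 0.26 (SE 0.20, adjusted p = 0.32), 0.20 (SE 0.12, adjusted p = 0.191) and -0.41 (SE 0.19, adjusted p = 0.106).

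The next comparison asks what ASIV changed in BTBR mice, and it uses the same BTBR vehicle libraries as the comparison of the strains. Of the 33 members 7 were called, 3 higher and 4 lower after ASIV. Lhfpl3, Cryab and Apod were higher, and Mog, Qdpr, Enpp2 and Olig1 were lower. Of all genes tested 29.1% were called, 13.7% higher and 15.4% lower, and the count of members does not exceed this background. Their median difference was -0.13, against -0.01 over all genes tested. The groups did not overlap for 8 members, against 39.1% of all genes.

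Lhfpl3 was the precursor gene called. It rose by 1.26 (SE 0.13, adjusted p = 8.27e-05) in BTBR mice given ASIV, where its 3 libraries (4.78 to 6.02 FPKM) lay above those of BTBR vehicle (1.39 to 2.31 FPKM), and this held under all 25 alternatives. Pdgfra differed by 0.05 (SE 0.12, adjusted p = 0.798), Cspg4 by 0.21 (SE 0.14, adjusted p = 0.281) and C1ql1 by -0.38 (SE 0.21, adjusted p = 0.189). Gpr17 averaged 15.7 FPKM under vehicle and 16.1 under ASIV, with a difference of 0.02 (SE 0.19, adjusted p = 0.957). Among the regulators Olig1 fell by 0.53 (SE 0.15, adjusted p = 0.0208), with no overlap. That call ended without BTBR vehicle 1 (-0.51, adjusted p = 0.0532), BTBR vehicle 3 (-0.42, adjusted p = 0.0757) or BTBR ASIV 2 (-0.41, adjusted p = 0.0839) and in a fit of the compared groups alone. Olig2, Sox10 and Myrf differed by 0.16, 0.35 and 0.27 and were not called.

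Mog was the myelin protein gene called after ASIV in BTBR mice. Its BTBR ASIV libraries (16.3 to 36.9 FPKM) lay below its BTBR vehicle libraries (37.9 to 75.5 FPKM), with a difference of -1.0 (SE 0.32, adjusted p = 0.0387). The call ended without C57 vehicle 1, C57 ASIV 1, BTBR vehicle 1, BTBR vehicle 3, BTBR ASIV 2 or BTBR ASIV 3 (differences of -1.13 to -0.66, adjusted p 0.0502 to 0.119), after quantile normalization, with array weights and in a fit of the compared groups alone. Mal and Cldn11 differed by -0.53 (SE 0.36, adjusted p = 0.299) and -0.63 (SE 0.35, adjusted p = 0.207), and Mbp by 0.09 (SE 0.40, adjusted p = 0.892). Ugt8a was lower in every BTBR ASIV library than in every BTBR vehicle library, with a difference of -0.50 (SE 0.20, adjusted p = 0.0723), which was not called.

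Of the other oligodendrocyte genes, Cryab and Apod rose and Qdpr and Enpp2 fell after ASIV in BTBR mice. Cryab rose by 0.84 (SE 0.25, adjusted p = 0.027) and Apod by 0.81 (SE 0.19, adjusted p = 0.00766), each without overlap. Qdpr fell by 0.72 (SE 0.19, adjusted p = 0.0147) and Enpp2 by 0.54 (SE 0.12, adjusted p = 0.00435), again without overlap. The Apod and Enpp2 calls held under all 25 alternatives. The Cryab call ended without BTBR vehicle 2, BTBR vehicle 3, BTBR ASIV 1 or BTBR ASIV 3 (0.57 to 0.86, adjusted p 0.0596 to 0.0874) and with array weights, and the Qdpr call without BTBR ASIV 2 (-0.58, adjusted p = 0.0585). Apod, Enpp2 and Pdgfra are also made by cells of the meninges and vessels. The summed level of 10 markers of such cells was 165.4, 134 and 192.8 FPKM for BTBR vehicle and 337.1, 590.7 and 355.9 for BTBR ASIV, and 270 to 423.6 in C57 vehicle and 168.4 to 333 in C57 ASIV. Of the 7 markers tested, 2 were called higher and 1 lower after ASIV in BTBR mice, against 29.1% of all genes. Most of the sum was Ptgds, which oligodendrocytes express as well, while Col1a1 lay at 0.717 to 2.37 FPKM and Dcn at 0.276 to 1.65 over the 12 libraries. Their part in the Apod and Enpp2 results was not tested.

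Lhfpl3 was the single member called for the interaction, which tests whether the ASIV effect differed between the strains. The ASIV effect was larger in BTBR than in C57 by 1.13 (SE 0.19, adjusted p = 0.00353). In C57 mice Lhfpl3 averaged 6.50 ± 0.745 FPKM under vehicle and 7.20 ± 0.409 under ASIV, a difference of 0.13 (SE 0.13, adjusted p = 1). Of all genes tested 14.3% were called for the interaction, 6.91% with a positive sign. The interaction of Mog was -1.09 (SE 0.46, adjusted p = 0.138), that of Cryab 0.99 (SE 0.36, adjusted p = 0.0849), that of Enpp2 -0.45 (SE 0.16, adjusted p = 0.0827) and that of Qdpr -0.73 (SE 0.27, adjusted p = 0.0932), none of which was called. That of Apod was 0.67 (SE 0.27, adjusted p = 0.119) and that of Olig1 -0.24 (SE 0.22, adjusted p = 0.501), also not called. A transcript on the opposite strand, A930003O13Rik, shares 17.6% of the exon bases of Lhfpl3.

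In C57 mice no member was called after ASIV, and neither was any other gene (0% of 13586 by limma), while 417 genes had an unadjusted p under 0.05. None of the members was among those 417. Members differed by -0.31 (Olig2) to 0.22 (Opalin), with a median of -0.02. The FPKM of the groups did not overlap for 4 members (Cspg4, Olig1, Olig2 and Enpp2, each lower after ASIV), against 13.1% of all genes. Olig2 stood at 14.95 to 18.16 FPKM in C57 vehicle and 12.74 to 13.21 in C57 ASIV, with a difference of -0.31 (SE 0.22, adjusted p = 1).

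Between the strains given ASIV, no member was called, against 2.53% of all genes tested. The median difference of the members was 0.02. The groups did not overlap for 7 members, against 26.2% of all genes. Members with the largest differences were Trf at -0.71 (SE 0.21, adjusted p = 0.0922), Opalin at -0.63 (SE 0.34, adjusted p = 0.338), Gpr17 at 0.61 (SE 0.19, adjusted p = 0.117) and Olig1 at 0.52 (SE 0.15, adjusted p = 0.0975). The value of Trf is a description, since this gene entered the test through C57 libraries alone. At an unadjusted p under 0.05 there were 6 members, against 19.2% of all genes tested.

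Because the myelin genes moved together between libraries, each member was also expressed as a percentage of Mbp in the same library, a comparison added after seeing the data. Mal stood at 21.1, 20.2 and 20.8 % of Mbp in C57 vehicle, 24.1, 23.6 and 25.2 in C57 ASIV, 40.7, 55.8 and 48.9 for BTBR vehicle and 29.8, 30.4 and 33.6 for BTBR ASIV. Cldn11 stood at 23.7, 21.4 and 24.1 % of Mbp in C57 vehicle, 27.9, 24.4 and 26.7 in C57 ASIV, 46.1, 60.1 and 47.9 for BTBR vehicle and 31.2, 30.6 and 31.0 for BTBR ASIV. The BTBR vehicle libraries of both genes lay above all others, and the BTBR ASIV libraries lay between them and the C57 libraries. Mog stood at 9.75, 8.32 and 9.51 % of Mbp in C57 vehicle, 11.7, 9.42 and 10.6 in C57 ASIV, 18.6, 28.6 and 17.5 for BTBR vehicle and 10.4, 9.26 and 9.41 for BTBR ASIV, with BTBR vehicle above all others and BTBR ASIV within the range of the C57 libraries. Cnp stood at 30.7, 27.7 and 29.4 % of Mbp in C57 vehicle, 33.5, 31.8 and 30.1 in C57 ASIV, 40.6, 57.5 and 31.7 for BTBR vehicle and 25.9, 28.6 and 25.4 for BTBR ASIV, with each BTBR vehicle library above C57 vehicle and each BTBR ASIV library below BTBR vehicle. Mobp stood at 26.2, 27.8 and 26.0 % of Mbp in C57 vehicle, 28.3, 28.5 and 30.8 in C57 ASIV, 22.6, 22.0 and 18.6 for BTBR vehicle and 24.2, 24.0 and 32.9 for BTBR ASIV, lowest in BTBR vehicle. Fa2h stood at 4.19, 4.25 and 4.02 % of Mbp in C57 vehicle, 4.24, 4.43 and 4.51 in C57 ASIV, 3.56, 4.42 and 3.44 for BTBR vehicle and 3.96, 4.27 and 3.85 for BTBR ASIV, and its groups overlapped under vehicle.

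**Figure D5:**
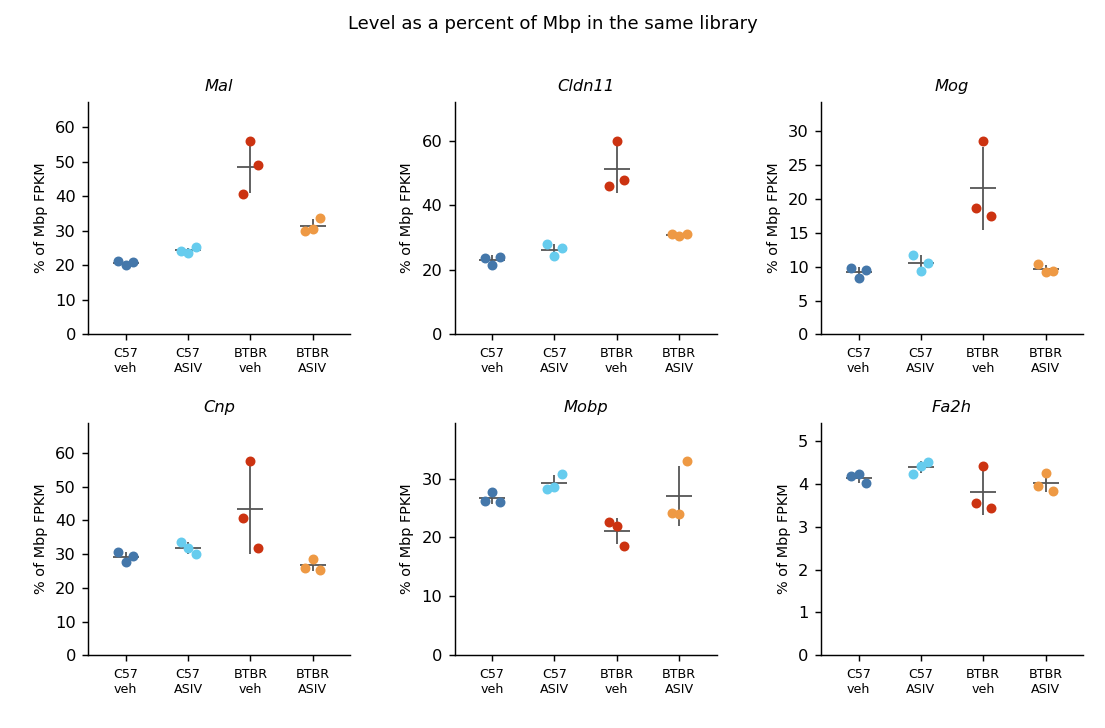
Level of 6 myelin genes as a percentage of the Mbp FPKM of the same library (points), with the mean (line) and the standard deviation (bar) of each group of 3 and axes starting at 0. Mal, Cldn11 and Mog are a larger share of Mbp in every BTBR vehicle library than in any other library, and Fa2h is between 3.44 and 4.51% everywhere.

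Of the 32 members other than Mbp, 14 did not overlap between the strains under vehicle as a ratio to Mbp, against 12.5% of all genes. The 9 higher in BTBR were Gpr17, Olig1, Nkx6-2, Mog, Cnp, Mal, Cldn11, Tspan2 and Qdpr, and the 5 lower were Lhfpl3, Myrf, Mobp, Trf and Cryab. Trf entered the test through C57 libraries alone, so its place in these counts of ratios is a description. For ASIV in BTBR mice 10 did not overlap, against 3.19% of all genes. The 4 higher were Lhfpl3, Mobp, Trf and Cryab, and the 6 lower were Nkx6-2, Mog, Mag, Cnp, Mal and Cldn11. For ASIV in C57 mice 7 were higher and 0 lower, against 1.94% of all genes, among them Mal, Cldn11 and Mobp. Between the strains under ASIV 2 were higher (Mal and Cldn11) and 8 lower, against 2.8% of all genes. Since the members vary together with Mbp between libraries, a share of members above the background is not read as a result about them.

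The mean of the 11 myelin protein genes, leaving out the gene itself, then took the place of Mbp. Mog, Mal and Cldn11 were again above C57 in all BTBR vehicle libraries and 16 members were below, against 23.2% of all genes in either direction. Of 13586 genes, 352 were above and 2799 below. For ASIV in BTBR mice 11 members were above and 3 (Mog, Cnp and Cldn11) below, against 11.7% of all genes. Here 1541 of all genes were above and 45 below. As with Mbp, a share of members above the background is not read as a result about them. Mbp itself was among the 16 and among the 11. The sign of a ratio is relative to its denominator, which here holds Mal, Cldn11 and Mog.

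A further fit, also added after seeing the data, took the mean log2 level of the 37 other mature oligodendrocyte genes in each library as a covariate. This mean ran from 2.91 in BTBR ASIV 2 to 3.72 in BTBR vehicle 1. Of these 37 genes 3 were called higher and 5 lower in the comparison of the strains under vehicle, and 0 higher and 6 lower, with a median of -0.22, for ASIV in BTBR mice, so the covariate is not free of group differences. It stood at 3.72, 3.04 and 3.51 in the BTBR vehicle libraries and 3.45, 2.91 and 3.27 in the BTBR ASIV libraries. The median SE of the 15 myelin protein and lipid genes fell from 0.30 to 0.12 under vehicle. At an equal covariate 17 members were called for BTBR vehicle against C57 vehicle, 9 higher and 8 lower, with a background of 46.1% of all genes. They held the 12 called before, Trf among them as a description, with Mal at 1.06, Cldn11 at 1.00 and Mog at 1.04. The 5 others were Cnp (0.40), Tspan2 (0.45), Myrf (-0.59), Mobp (-0.49) and Fa2h (-0.24).

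For ASIV in BTBR mice 12 members were called at an equal covariate, 8 higher and 4 lower, against 31.3% of all genes (1984 genes higher and 2267 lower). They held the 7 called before. The 5 others, all higher, were Mobp (0.91), Mbp (0.55, from 0.09 without the covariate), Sox10 (0.57), Myrf (0.55) and Fa2h (0.52). The covariate is not free of differences between these groups, and its part in these signs was not tested. Between the strains under ASIV, Mal (0.72), Cldn11 (0.59) and Olig1 (0.59) were called higher in BTBR, against 6.01% of all genes called. For the interaction 9 members were called, 7 higher and 2 lower, against 17.9% of all genes. The largest were Cryab (1.19), Lhfpl3 (1.15) and Mog (-0.82). After ASIV in C57 mice 0 members were called at an equal covariate.

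Genes of the same pathway outside the list were counted by stage, and their counts are to be read against 43.1% of all genes called between the strains under vehicle (22.3% higher, 20.8% lower) and 29.1% for ASIV in BTBR mice (13.7% higher, 15.4% lower). Of 19 further genes listed for precursors and tested, 4 were called higher and 5 lower in BTBR vehicle than in C57 vehicle (47.4%). After ASIV in BTBR mice 4 were called higher and 4 lower (42.1%). Their C57 vehicle means ran from 1.55 (Nkx2-2) to 136 FPKM (Gpr37l1), against 8.02 for Pdgfra. Which cells of the tissue made these RNAs was not tested. Olfm2, an olfactomedin family protein, averaged 56.0 ± 4.03 FPKM in C57 vehicle, 48.5 ± 5.62 in C57 ASIV, 25.8 ± 3.73 for BTBR vehicle and 39.9 ± 6.81 for BTBR ASIV. Its differences were -1.10 (SE 0.14, adjusted p = 9.31e-05) between the strains under vehicle and 0.61 (SE 0.14, adjusted p = 0.00694) for ASIV in BTBR mice. Tnr, the matrix protein tenascin-R made by precursors and oligodendrocytes, averaged 15.6 ± 0.554 FPKM in C57 vehicle, 15.1 ± 1.64 in C57 ASIV, 8.70 ± 1.06 for BTBR vehicle and 13.5 ± 1.55 for BTBR ASIV, with differences of -0.78 (SE 0.11, adjusted p = 0.000183) and 0.58 (SE 0.11, adjusted p = 0.00243). Dscam, a cell adhesion molecule, was lower in BTBR vehicle, with a difference of -0.57 (SE 0.11, adjusted p = 0.00113). Called higher there were Neu4 (0.95, SE 0.18, adjusted p = 0.00114) and Matn4 (0.86, SE 0.18, adjusted p = 0.00196). So were Rprm (0.78, SE 0.22, adjusted p = 0.0142) and Cspg5 (0.62, SE 0.17, adjusted p = 0.012). Cspg5, a brain proteoglycan, was lower after ASIV in BTBR mice, with a difference of -0.67 (SE 0.17, adjusted p = 0.012). Of 16 further committed-stage genes 1 was called higher and 3 lower under vehicle, and 1 higher and 1 lower after ASIV in BTBR mice, or 25% and 12.5%. Zeb2, a zinc finger factor that promotes myelination, differed by -0.56 (SE 0.11, adjusted p = 0.00152) and 0.38 (SE 0.11, adjusted p = 0.0222) in these comparisons. Rras2, a small GTPase, differed by 0.45 (SE 0.12, adjusted p = 0.00797) and -0.45 (SE 0.12, adjusted p = 0.0118). Zfp536, a zinc finger protein, was lower in BTBR vehicle, with a difference of -0.52 (SE 0.11, adjusted p = 0.00339).

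Of 37 further mature genes tested, 3 were called higher and 5 lower in BTBR vehicle than in C57 vehicle, and 0 higher and 6 lower after ASIV in BTBR mice. These are 21.6% and 16.2% of the list, against 43.1% and 29.1% of all genes. Il33, a nuclear cytokine of oligodendrocytes and astrocytes, averaged 13.5 ± 0.601 FPKM in C57 vehicle, 12.6 ± 3.33 in C57 ASIV, 4.43 ± 2.96 for BTBR vehicle and 4.71 ± 1.37 for BTBR ASIV. It was lower in BTBR vehicle, with a difference of -1.57 (SE 0.35, adjusted p = 0.00485). The difference after ASIV in BTBR mice was 0.20 (SE 0.35, adjusted p = 0.71), which was not called. Ninj2, an adhesion protein, stood at 1.26, 2.21 and 1.38 FPKM in C57 vehicle and 0.413, 0.125 and 0.264 for BTBR vehicle. All 6 C57 libraries were at 1 FPKM or more and no BTBR library was, so it entered the test through C57 alone and its difference of -1.03 is given as a description. Cdc42ep1, a cytoskeletal effector, was lower in BTBR vehicle, with a difference of -0.71 (SE 0.14, adjusted p = 0.00162). After ASIV in BTBR mice the membrane protein Tmem125 was lower, with a difference of -1.07 (SE 0.26, adjusted p = 0.00953). Pdlim2, a cytoskeletal adaptor, and Gpr62, an orphan receptor, were lower with differences of -0.79 (SE 0.21, adjusted p = 0.0126) and -0.48 (SE 0.14, adjusted p = 0.0208). The median difference of the 37 genes was 0.09 between the strains under vehicle and -0.22 for ASIV in BTBR mice.

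Of 20 further genes of sphingolipid, fatty acid and sterol metabolism, 5 were called higher and 6 lower between the strains under vehicle, and 6 higher and 4 lower after ASIV in BTBR mice, or 55% and 50%, against 43.1% and 29.1% of all genes. These genes are used by many cell types. Degs1, the desaturase that completes ceramide, averaged 23.2 ± 2.26 FPKM in C57 vehicle, 22.5 ± 3.68 in C57 ASIV, 10.2 ± 2.31 for BTBR vehicle and 19.7 ± 1.46 for BTBR ASIV. Its differences were -1.13 (SE 0.15, adjusted p = 9.57e-05) and 0.90 (SE 0.15, adjusted p = 0.0009) in the 2 comparisons. Fads1, a fatty acid desaturase, differed by -0.83 (SE 0.12, adjusted p = 0.000249) and 0.72 (SE 0.12, adjusted p = 0.00121). Psap, the precursor of the saposins that help break down sphingolipids, differed by 0.71 (SE 0.10, adjusted p = 0.000227) and -0.66 (SE 0.10, adjusted p = 0.000768). Of 17 genes of the node and paranode, the axonal contact sites of myelin, 3 were called higher and 8 lower under vehicle, and 2 higher and 3 lower after ASIV in BTBR mice, or 64.7% and 29.4%, against the same shares of all genes. Cadm3, an axonal adhesion molecule that binds glial partners, averaged 65.3 ± 4.38 FPKM in C57 vehicle, 62.6 ± 7.09 in C57 ASIV, 24.4 ± 2.21 for BTBR vehicle and 40.3 ± 3.37 for BTBR ASIV, with differences of -1.39 (SE 0.11, adjusted p = 3.48e-06) and 0.70 (SE 0.11, adjusted p = 0.000698). Scn8a, a sodium channel of mature nodes, was lower in BTBR vehicle, with a difference of -0.87 (SE 0.12, adjusted p = 0.000189). Sptbn4, the spectrin that anchors nodes, was higher by 0.75 (SE 0.13, adjusted p = 0.000748). After ASIV in BTBR mice Cadm4, the glial partner of such molecules, was lower, with a difference of -0.39 (SE 0.10, adjusted p = 0.0119). Cntnap2, a protein of the juxtaparanode, was higher by 0.52 (SE 0.13, adjusted p = 0.0122). The comparison of the strains and that of ASIV in BTBR mice share the BTBR vehicle libraries here as well.

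Markers of other cells were read in the same libraries. Schwann cells, which myelinate peripheral nerve and share several myelin genes, were represented by 6 of 10 markers in the table, of which 3 were tested. Sox2, which astrocytes express, made up most of their sum of 24.26 to 44.29 FPKM. Of 10 choroid plexus markers 5 were in the table, with sums of 1.062 to 10.68 FPKM. Of 10 astrocyte markers 3 were called higher and 2 lower between the strains under vehicle, and 1 higher and 1 lower after ASIV in BTBR mice. Of 10 microglial markers 2 were called higher and 4 lower, and 3 higher and 2 lower, in the same comparisons. Of 10 neuronal markers 1 was called higher and 2 lower, and 0 higher and 1 lower. Of 10 endothelial markers 2 were called higher and 2 lower in each of the 2 comparisons. These counts stand against 43.1% of all genes called under vehicle and 29.1% for ASIV in BTBR mice. The summed level of the neuronal markers ran from 1222 to 1349 FPKM in C57 vehicle, 1154 to 1453 in C57 ASIV, 953.9 to 1190 for BTBR vehicle and 907.3 to 1083 for BTBR ASIV, so each BTBR vehicle library lay below each C57 vehicle library. The differences of the 10 neuronal markers between the strains under vehicle ran from -1.08 to 0.70, with a median of -0.16. Endothelial sums ran from 148.6 to 174.4, 134.1 to 159.7, 160.3 to 210.8 and 135.6 to 174.5 FPKM in the same order of groups, and overlapped. The differences of the 10 endothelial markers between the strains under vehicle ran from -0.96 to 0.66, with a median of -0.03. For ASIV in BTBR mice they ran from -0.81 to 1.44, with a median of 0.10. Astrocyte sums ran from 778.5 to 913.4, 658.4 to 768.3, 655.4 to 848.1 and 800.2 to 905.2 FPKM, and microglial sums from 224.4 to 261.3, 205.7 to 219.3, 199.4 to 246.7 and 229.3 to 297.3. The part of these cells in the values of the members was not tested.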

How the data were processed

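RNA-seq of mouse mPFC was available as 1 deposited table of FPKM with 12 library columns and 0 other columns. The authors computed these FPKM values from reads aligned with HISAT2 2.0.5 to mm10, per the submitters' processing notes. Which counter and annotation were used, and whether counting was stranded, is not given in the sources used here. Gene identifiers were matched to GENCODE M21 (17265 matched, 18 did not). FPKM times exon length gave whole multiples of 1 step for 97.6 to 98.0% of values under 50 fragments (within 0.02), from which depth was read.

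Genes at 1 FPKM or more in at least 3 of 12 libraries were tested on log2(FPKM + 1), a scale that understates changes of low genes. The model had 4 group means (limma 3.58.1 in R 4.3.3, eBayes with trend and robust, 8 residual degrees of freedom, Benjamini-Hochberg over 13586 genes), with 5 comparisons, and was tested on simulated data. Python 3.11.15 with pandas 2.3.3, numpy 2.4.6 and matplotlib 3.10.9 did the rest. Of 25 alternatives, the covariate was added after seeing the data, as were both ratios. The members and lists were chosen with earlier results of these data known. Values in each library were given for Mbp, Mog, Cnp, Olig2, Sox10, Myrf, Pdgfra and Gpr17 and, per stage, for up to 3 called members with the largest difference. From each further pathway list, up to 3 called genes with the smallest p were named. Of the further precursor genes, those called higher between the strains under vehicle were named as well.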

Additional observations from a re-analysis of the deposited data

Results flagged for a closer look

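The effect of ASIV on Lhfpl3 differed between the strains by the test of the difference itself. The interaction of strain and ASIV was 1.13 in log2(FPKM + 1) (SE 0.19, limma adjusted p = 0.00353), from an ASIV effect of 1.26 in BTBR and 0.13 in C57. All 3 BTBR ASIV libraries (4.78, 5.54 and 6.02 FPKM) lay above all 3 BTBR vehicle libraries (1.43, 1.39 and 2.31 FPKM), and 6.91% of all genes tested were called with the same sign. The interaction, the ASIV effect in BTBR and the strain difference under vehicle all use these BTBR vehicle libraries. The BTBR ASIV libraries lay below all those of C57 ASIV (6.88 to 7.66 FPKM). That difference of -0.35 (SE 0.13, limma adjusted p = 0.177) was not called.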

How the results depend on the processing

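No called difference of a member changed sign under any of the 25 alternatives. Of the 12 members called between the strains under vehicle, Lhfpl3, Olig1 and Cryab kept the call in every alternative, as did Lhfpl3, Enpp2 and Apod for ASIV in BTBR and Lhfpl3 for the interaction. Trf, given as a description, kept its call between the strains under vehicle in the 24 alternatives where it was tested. With 1 library left out, the members called ranged from 4 to 12 between the strains under vehicle, from 4 to 9 for ASIV in BTBR, from 0 to 1 between the strains under ASIV and from 1 to 2 for the interaction, and were 0 for ASIV in C57. Over all genes tested, 33.5 to 43.7%, 22.8 to 29.8%, 0.731 to 4.76% and 8.61 to 16.3% were called in these fits of the first 4 comparisons. The count of 4 under vehicle came without C57 vehicle 2 (1 higher, 3 lower; 33.5% of all genes), and 6 were called without C57 vehicle 1 or without BTBR vehicle 3. For ASIV in BTBR, 4 were called without BTBR ASIV 2 (23.2% of all genes). The other mature genes as covariate gave 12 members for ASIV in BTBR, 3 between the strains under ASIV and 9 for the interaction. With the replicate block, 1 member was called between the strains under ASIV (Olig1) and 2 for the interaction (Lhfpl3 and Mog), and 12, 8 and 0 in the other comparisons, against 3.05%, 13.7%, 42.7%, 29.5% and 0% of all genes. The numbers are not taken to pair the libraries, since same-numbered libraries correlated at -0.172 to 0.279. The cause of these shifts was not tested. Of all genes called for the interaction, 48.4% were positive, and 58.7% after rescaling without the mitochondrial genome.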
